A study of Mus musculus with 12 samples.

Results

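Of the 138153 H2AK119ub peaks that 8 deposited lists placed on chromosomes 1 to 19, X and Y of the mouse, 9949 lay in exons away from annotated promoters. A peak was counted when its summit, the base of its highest fragment pileup, lay in an exon of any transcript of a protein-coding gene (GENCODE vM39, GRCm39) and more than 2 kb from the canonical transcription start site (TSS) of every protein-coding gene. These are called distal exonic peaks here. The choice rested on position alone, not on a peak's strength. The libraries came from CUT&RUN, in which a nuclease directed by an antibody releases the marked chromatin fragments, on mouse bone marrow cells purified for c-Kit, a fraction rich in haematopoietic stem and progenitor cells (HSPCs). The cells were kept overnight in prestimulation and then given 2 retroviruses, 1 of which expressed BAP1 in every group, controls included; the genotype label was "mock" throughout. In the 1-590 set the other virus was an empty vector, truncated ASXL1 (1-590), or 1 of its mutants, which the labels call condensation-impaired (10RA) and condensation-defective (25RA). In the 1-1067 set it was a separate empty vector, ASXL1 (1-1067), or the mutants 34DN and 36EQ, which the labels call charge-neutralized. Each set is a batch in the labels, each condition had 1 library, and every library came from a bulk transduced population, so a lower level of the mark and fewer marked cells cannot be told apart. The number of mice, their age and the share of cells transduced are not given in the sources used here.

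H2AK119ub is histone H2A carrying a single ubiquitin, placed by Polycomb repressive complex 1 (PRC1) and removed by the deubiquitinase BAP1 together with its cofactor ASXL1. PRC1 is best known for marking CpG-rich promoters of silent developmental regulators, and truncating ASXL1 mutations occur in myeloid malignancies. Exons are richer in GC than introns, and a distal exon can still hold a CpG island or the start of a transcript other than the canonical one.

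The sequences below show examples of recurrent distal exonic peaks in coding sequence. Each of the first 6 is the 200 bases around a summit (GRCm39, plus strand) and lies in the coding sequence of 1 exon. They belong to the regions found in most libraries that met this condition, for which the ranking of regions was followed past the 20 named further on. They were chosen by recurrence and position, and all 6 were richer in CpG than the median distal exonic peak given below. Capitals mark CpG dinucleotides.
Ubxn11 chr4:133851551-133851750: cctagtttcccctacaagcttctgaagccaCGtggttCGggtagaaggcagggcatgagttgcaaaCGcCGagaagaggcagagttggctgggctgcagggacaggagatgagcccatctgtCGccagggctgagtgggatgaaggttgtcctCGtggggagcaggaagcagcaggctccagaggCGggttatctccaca
Asb16 chr11:102167260-102167459: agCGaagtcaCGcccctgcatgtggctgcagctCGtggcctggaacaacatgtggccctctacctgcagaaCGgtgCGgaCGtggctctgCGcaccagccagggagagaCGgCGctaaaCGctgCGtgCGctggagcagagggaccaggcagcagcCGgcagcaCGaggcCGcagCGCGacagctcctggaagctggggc
B3gnt6 chr7:97842872-97843071: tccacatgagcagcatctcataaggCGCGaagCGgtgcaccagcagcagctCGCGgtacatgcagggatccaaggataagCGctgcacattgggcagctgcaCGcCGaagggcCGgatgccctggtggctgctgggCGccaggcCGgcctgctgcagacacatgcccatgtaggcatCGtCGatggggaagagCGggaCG
Mzf1 chr7:12778116-12778315: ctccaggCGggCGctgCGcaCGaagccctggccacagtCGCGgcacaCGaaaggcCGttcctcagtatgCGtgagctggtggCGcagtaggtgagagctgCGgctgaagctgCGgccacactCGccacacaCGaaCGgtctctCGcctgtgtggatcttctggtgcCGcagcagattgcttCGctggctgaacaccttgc
Irs2 chr8:11057259-11057458: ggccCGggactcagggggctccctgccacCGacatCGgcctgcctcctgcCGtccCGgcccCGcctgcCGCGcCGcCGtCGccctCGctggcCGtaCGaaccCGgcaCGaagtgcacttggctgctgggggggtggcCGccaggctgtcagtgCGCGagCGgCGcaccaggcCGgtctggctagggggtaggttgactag
Gdf15 chr8:71082574-71082773: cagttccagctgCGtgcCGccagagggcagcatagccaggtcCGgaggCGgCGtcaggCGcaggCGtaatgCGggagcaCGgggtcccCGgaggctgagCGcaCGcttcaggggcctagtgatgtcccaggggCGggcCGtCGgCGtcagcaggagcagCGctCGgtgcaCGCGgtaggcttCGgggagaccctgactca
The Ubxn11 window, from a region listed in 6 libraries, held 7 CpG at 59.5% GC. The other 5 regions were each listed in 5 libraries, and their windows held 15 to 22 CpG. Irs2, an insulin receptor substrate, had the most, with 22 CpG at 75% GC in exon 1 of 2. Asb16 (exon 3 of 5) and Mzf1 (exon 5 of 5), a zinc finger gene of myeloid cells, lay at least 5967 bases from any annotated transcript start. Gdf15 encodes a stress-induced cytokine and B3gnt6 a glycosyltransferase, and both peaks lay in exon 2 of 2. A pair of peaks of another kind, which lay inside single exons, is shown from the vector library of the 1-590 set. Here the exon is printed with 8 bases of intron on each side, and capitals mark the exon bases that the peak covered.
Cma1 chr14:56179575-56179845: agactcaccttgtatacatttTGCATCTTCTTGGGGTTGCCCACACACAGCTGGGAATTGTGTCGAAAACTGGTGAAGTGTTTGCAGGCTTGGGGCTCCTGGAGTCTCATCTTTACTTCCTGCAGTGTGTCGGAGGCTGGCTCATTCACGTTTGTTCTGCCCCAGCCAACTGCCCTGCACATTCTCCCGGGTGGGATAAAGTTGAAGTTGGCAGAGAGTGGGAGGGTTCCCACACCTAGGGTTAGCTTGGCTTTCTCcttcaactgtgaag
Spp1 chr5:104587123-104587420: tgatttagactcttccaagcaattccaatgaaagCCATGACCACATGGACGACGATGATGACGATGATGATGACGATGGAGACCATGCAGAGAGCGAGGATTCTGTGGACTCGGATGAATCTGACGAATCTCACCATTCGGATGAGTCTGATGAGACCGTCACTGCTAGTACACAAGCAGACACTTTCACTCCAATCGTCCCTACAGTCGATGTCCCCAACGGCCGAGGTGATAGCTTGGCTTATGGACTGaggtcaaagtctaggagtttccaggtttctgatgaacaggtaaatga
The Cma1 peak (mast cell chymase) began 13 bases inside exon 4 of 5 and ended 6 bases before its other edge, covering 236 of its 255 bases. The Spp1 peak (osteopontin) covered 217 of the 282 bases of exon 6 of 7. The 271 printed bases of Cma1 held 4 CpG and the 298 of Spp1 held 13.

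Among distal H2AK119ub peaks, exons held more summits than their share of the distal genome in each library. The excess was larger in the 1-590 set than in the 1-1067 set. Distal exons make up 4.003% of the genome beyond 2 kb from a canonical TSS. In the 1-590 set, distal exonic peaks numbered 1586 in vector, 2264 with 1-590, 2271 with 10RA and 2823 with 25RA. As a share of all distal peaks these were 13.6% in vector (Wilson 95% interval 13.0 to 14.3), 11.3% with 1-590 (10.9 to 11.7), 11.8% with 10RA (11.4 to 12.3) and 12.2% with 25RA (11.8 to 12.6). The numbers in the 1-1067 set were 255 in vector, 244 with 1-1067, 234 with 34DN and 272 with 36EQ, and the shares were 5.82% (5.16 to 6.55), 5.30% (4.69 to 5.99), 5.79% (5.11 to 6.55) and 6.03% (5.37 to 6.76). The exon share was thus 2.82 to 3.41 times that of the genome in the 1-590 set and 1.32 to 1.51 times in the 1-1067 set. Within the 1-590 set the vector interval lay above those of the other 3 libraries on this denominator. As a share of all peaks, promoter peaks included, the order differed: 7.88% in vector (7.52 to 8.26), 6.97% with 1-590 (6.70 to 7.25), 8.05% with 10RA (7.73 to 8.37) and 8.34% with 25RA (8.05 to 8.64). Within the 1-1067 set all 4 intervals of the distal share overlapped. As a share of all peaks its values were 4.44% in vector, 3.87% with 1-1067 (3.42 to 4.37), 4.41% with 34DN and 4.47% with 36EQ. Distal exons make up 3.88% of the whole genome, so on that denominator 1-1067 showed no excess. With q of 0.05 or less the share over this set was 3.52%. Each set is a batch, so batch and construct cannot be told apart between the sets. The intervals cover counting error only and no test between conditions was possible with 1 library each.

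**Figure D1:**
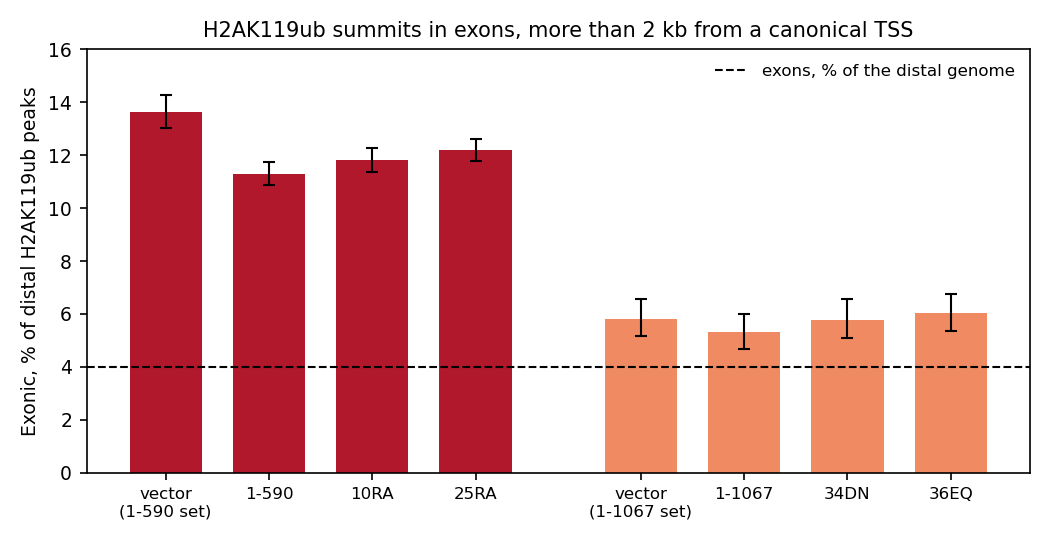
Bars give the exonic share of H2AK119ub peaks more than 2 kb from a canonical TSS, in percent, for the 8 libraries; error bars are Wilson 95% intervals and the dashed line is the exon share of the distal genome (4.003%). The 4 libraries of the 1-590 set stand at 11.3 to 13.6% and the 4 of the 1-1067 set at 5.30 to 6.03%.

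The lists differed in strength as well as in length. The genome background recovered from the peak values was 0.908 fragments per base in vector, 2.06 with 1-590, 1.72 with 10RA and 1.86 with 25RA, against 2.17 to 2.92 in the 1-1067 set. Of the distal exonic peaks, 84.8% in vector, 95.5% with 1-590, 90.2% with 10RA and 94.4% with 25RA had a q of 0.05 or less. Only 18.04% in vector, 26.2% with 1-1067, 18.4% with 34DN and 31.3% with 36EQ did so in the 1-1067 set, whose distal exonic peaks were thus mostly weak calls. Their median summit pileup was 12 to 15 fragments there and 13 to 21 in the 1-590 set.

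In the 1-590 set the peaks favoured coding sequence. The summit lay in coding sequence of the canonical transcript for 48.4% of distal exonic peaks in vector, 48.0% with 1-590, 53.2% with 10RA and 51.5% with 25RA, against 29.5% of all distal exon bases. Canonical 3′ UTRs held 17.6%, 15.0%, 15.2% and 14.7% in the same order, against 30.8% of exon bases. The 1-1067 set did not share this preference: coding sequence held 14.5 to 25.5% and canonical 3′ UTRs 29.9 to 36.8%. The remaining peaks lay almost all in exons of non-canonical transcripts, 30.8 to 35.8% in the 1-590 set and 42.0 to 49.3% in the 1-1067 set, against 39.1% of exon bases. First exons, which hold 5.68% of distal exon bases, held 15.2 to 20.3% of the peaks in the 1-590 set and 12.1 to 16.4% in the 1-1067 set.

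The label "distal to TSS" held only for the canonical start. A start of some annotated transcript, of any gene type, lay within 2 kb of 49.2% of distal exonic summits in vector, 52.9% with 1-590, 48.0% with 10RA and 49.1% with 25RA, against 30.6% of distal exon bases. The shares in the 1-1067 set were 36.9% in vector, 45.1% with 1-1067, 42.3% with 34DN and 38.6% with 36EQ. Within 500 bases of a start lay 28.1 to 33.7% of the peaks in the 1-590 set and 19.7 to 27.05% in the 1-1067 set, against 12.6% of exon bases. Beyond the summit, 53.4 to 76.1% of the peaks of a library lay wholly in exons, so the median peak had 100% of its bases there, and 9.83 to 17.6% of the peaks had under 50% in exons. Peaks just beyond the 2 kb limit were few. Between 2 and 3 kb from a canonical TSS there were 191, 290, 309 and 327 distal exonic peaks in vector, 1-590, 10RA and 25RA, with a median of 3.99, 4.15, 3.32 and 2.99 CpG per 100 bases. Exonic peaks just inside the limit, 1 to 2 kb from a TSS, numbered 466, 677, 611 and 723 and had a median of 5.98, 5.98, 5.32 and 4.98. The median distance of a distal exonic summit to the nearest canonical TSS was 10912 to 16524 bases over the 8 libraries.

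**Figure D2:**
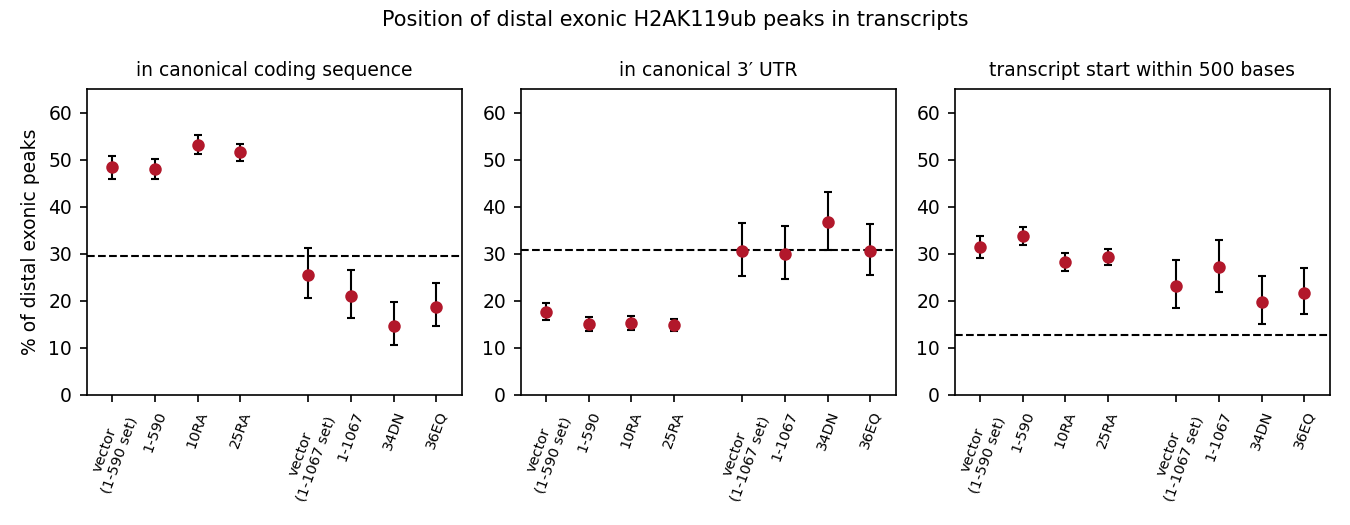
Share of distal exonic H2AK119ub peaks, in percent, with the summit in canonical coding sequence (left), in a canonical 3′ UTR (middle) and within 500 bases of any annotated transcript start (right), by library with Wilson 95% intervals; dashed lines give the same share of all distal exon bases. Coding sequence stands at 48.0 to 53.2% in the 1-590 set, above the 29.5% of exon bases, and at 14.5 to 25.5% in the 1-1067 set, below it.

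Distal exonic peaks of the 1-590 set lay in sequence with more CpG than exons at large. The median density in the 301 bases around the summit was 2.99 CpG per 100 bases in vector and in 1-590, and 2.66 in 10RA and in 25RA, against 1.00 for distal exon bases and 1.66 for coding bases among them. In the 1-1067 set it was 1.33 in vector, 1-1067 and 36EQ and 1.00 in 34DN. At least 4 CpG per 100 bases were found around 34.9% of the peaks in vector, 36.2% with 1-590, 29.6% with 10RA and 30.2% with 25RA, around 5.88 to 8.09% in the 1-1067 set, and around 3.23% of exon bases. By the usual signs of a CpG island (GC of 50% or more and a CpG observed to expected ratio of 0.6 or more), 27.2% of the peaks in vector, 27.3% with 1-590, 21.0% with 10RA and 21.9% with 25RA passed, against 1.85% of exon bases. Peaks with no annotated start within 2 kb had a median of 2.33 in each library of the 1-590 set. Promoter peaks were denser, with medians of 7.31 to 8.31 in the 1-590 set and 4.65 to 5.32 in the 1-1067 set.

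**Figure D3:**
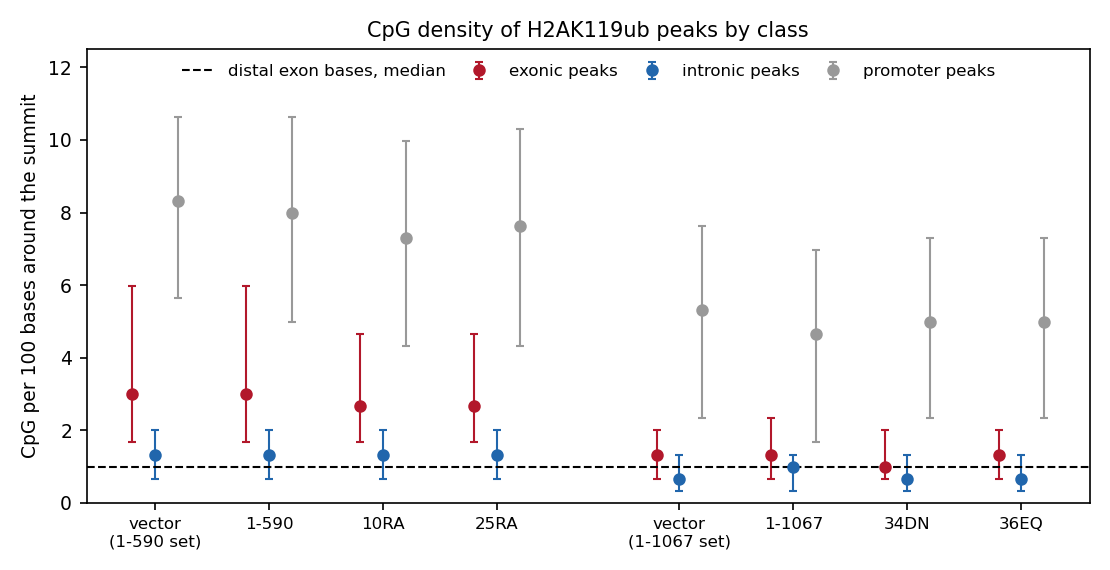
Median CpG density (CpG per 100 bases, in the 301 bases around the summit) of distal exonic, distal intronic and promoter H2AK119ub peaks in each library; error bars are quartiles over peaks and the dashed line is the median of distal exon bases (1.00). Distal exonic peaks lie between intronic and promoter peaks, at 2.66 to 2.99 in the 1-590 set and 1.00 to 1.33 in the 1-1067 set.

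Distal exonic and distal intronic peaks of the same library share its depth, so 7 measures were compared between them with the library as the unit (n = 8; exact two-sided sign-flip permutation test, smallest p possible 0.00781, Benjamini-Hochberg over the 7). In 5 of them the exonic peaks were higher. GC content was 4.03 ± 1.21 percentage points higher around exonic summits (SD; higher in 8 of 8 libraries, exact adjusted p = 0.0137), by 5.15 on average in the 1-590 set and 2.91 in the 1-1067 set. CpG density was 0.997 ± 0.562 per 100 bases higher (8 of 8, exact adjusted p = 0.0137), by 1.495 and 0.498 in the sets. Exons are richer in GC than introns, so the classes alone favour this direction for GC and CpG. A base for intron sequence is not given here, and neither p-value is a result about the mark. The local background, relative to the lowest of the library, was 0.491 ± 0.434 higher (8 of 8, exact adjusted p = 0.0137), by 0.892 and 0.0898. Exonic peaks were more often met by a peak of another library of the set, by 9.16 ± 4.65 percentage points (8 of 8, exact adjusted p = 0.0137). The difference was 13.3 in the 1-590 set and 5.0 in the 1-1067 set. An overlap counts for both libraries that share it, so the libraries of a set are not independent in this measure. Its p-value therefore overstates the evidence. Exonic peaks were also longer by 13.4 ± 11.5 bases (7 of 8, exact adjusted p = 0.0219), by 23.8 and 3 bases. Their fold enrichment over that background, the authors' own value for each peak, was lower by a small amount: the difference was -0.0761 ± 0.0894 (higher in 1 of 8, exact adjusted p = 0.0456). The share of peaks with q of 0.05 or less was 2.01 ± 3.24 percentage points higher, which did not pass (6 of 8, exact adjusted p = 0.125). The libraries are different conditions of 2 batches, not replicates. The calls for length and fold were lost with peaks of q of 0.05 or less only (exact adjusted p = 0.117 and 0.0750) and with peaks more than 2 kb from every annotated start (0.128 and 0.0656).

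Most distal exonic peaks were listed in a single library. Merging overlapping peaks gave 7120 regions with a distal exonic peak, of which 4867 (68.4%) came from 1 library, 2253 (31.6%) from 2 or more and 598 (8.399%) from 4 or more. Regions without such a peak had nearly the same spread, 28.4% in 2 or more and 8.79% in 4 or more. At the top the distal exonic regions were fewer: 40 (0.562%) reached 6 or more libraries, against 1.32% of the other regions. Of the distal exonic peaks themselves, those met in all other libraries of their set were 22.8% in vector, 16.03% with 1-590, 15.9% with 10RA and 13.3% with 25RA, and 0.855 to 2.05% in the 1-1067 set. The shares over all peaks were higher, at 30.8%, 19.4%, 21.9% and 18.3% in the 1-590 set and 3.58 to 4.30% in the 1-1067 set. Distal intronic peaks gave 10.6%, 6.34%, 6.71% and 5.30% in the 1-590 set, and promoter peaks 54.7%, 37.9%, 51.6% and 43.4%.

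Among the distal exonic regions, 4 were listed in all 8 libraries, and 3 of them are described here. The strongest, chr9:123290868-123291255, lay in the 3′ UTR of Lars2, the mitochondrial leucyl-tRNA synthetase, and had the highest fold of the distal exonic peaks in each of the 8 lists, from 10.98 in 1-1067 to 25.5 in 1-590; its sequence words occur 2 times in the genome, so reads could also come from the other copy. The region in Gne, the key enzyme of sialic acid synthesis, had single-copy sequence, 2.33 CpG per 100 bases and a summit in an exon of a non-canonical transcript in all 8, with folds of 2.997 to 4.73. The region in Vsig10l lay 78 bases from an annotated start and had folds of 2.89 to 4.13. Among the 8 regions of 7 libraries, chr10:79717465-79718192 in Prtn3, the neutrophil serine protease proteinase 3, had an exonic summit in each of the 7, with 4.98 CpG per 100 bases. Its summit pileup was 29 fragments in vector (fold 4.28), 35 with 1-590 (3.0), 38 with 10RA (3.90) and 40 with 25RA (3.82), and 19 in the other vector (2.44), 19 in 34DN (3.15) and 17 in 36EQ (2.33); the 1-1067 list had no peak there. The other 7 were in Prx, Gm13288, Ptprs, Adcy7, Bicdl1, Fbxo46 and Gse1, and in 6 of these the summit was exonic in 1 to 3 libraries only. The 20 regions found in most libraries closed with 8 of 6 libraries, in Ssc4d, Sertad2, Sgms1, Mrtfa, Ing1, Fam107b, Carns1 and Rnf44, all but 1 of them within 218 bases of some transcript start (Ssc4d, 647 bases).

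By gene, 5230 of 21738 protein-coding symbols had a distal exonic peak in some library, 1379 had 2 or more regions and 29 had 5 or more. Sptbn4, a spectrin of axons, had the most: 10 regions in 10 exons, with a median of 8.64 CpG per 100 bases, from 4, 6, 7 and 5 peaks in vector, 1-590, 10RA and 25RA and none in the 1-1067 set. Itsn1 (endocytic scaffold), Sgms1 (sphingomyelin synthase), Hmcn2 (hemicentin), Unc45b (myosin chaperone), Ryr1 (the calcium release channel of skeletal muscle) and Nopchap1 had 8 regions each; Nopchap1 has 121900 bases of distal exon. Syne1, a giant nuclear envelope spectrin, and Pde4dip had 7, and Gnas, the imprinted locus of the stimulatory G protein, had 6. Ryr1 had 2 peaks with 1-590, 6 with 10RA and 2 with 25RA and none in vector.

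Developmental transcription factors, the classic Polycomb targets, carried distal exonic peaks more often than genes of like exon length in the 1-590 set. Of 86 forkhead, Sox, Pax and T-box genes, 13 had one in vector, 22 with 1-590, 18 with 10RA and 18 with 25RA, where genes of the same distal exon length would give 5.07, 7.05, 7.15 and 8.63; the share of all protein-coding genes with one was 6.67%, 9.12%, 9.26% and 11.2%. Foxa1, a pioneer factor of endoderm, had a coding peak in exon 2 of 2 in all 4, with summit pileups of 27 in vector, 36 with 1-590, 44 with 10RA and 47 with 25RA and folds of 3.44, 2.58, 3.82 and 3.59. Tbx2, a T-box repressor, had 1, 3, 2 and 3 peaks in the same order, the leading one with a fold of 2.57, 2.32, 2.48 and 2.51. Sox6, Pax6 and Sox17 also recurred, Sox6 and Pax6 in all 4 and Sox17 in vector (fold 3.55), 10RA (3.52) and 25RA (3.16). Of 39 Hox genes, the body axis regulators, 2 had a peak in vector, 6 with 1-590, 6 with 10RA and 7 with 25RA (1.20, 1.87, 1.92 and 2.18 by exon length). Hoxb8, a homeobox gene of myeloid progenitors, had a 3′ UTR peak in all 4, with folds of 3.03 in vector, 2.29 with 1-590, 3.14 with 10RA and 2.92 with 25RA. Hoxc9 had a coding peak in 1-590 (2.07), 10RA (2.67) and 25RA (2.38) but not in vector. In the Hoxa cluster the peaks were few: Hoxa9 had them in 1-590 (fold 2.05) and 10RA (2 peaks, the higher 2.28), Hoxa3 in 1-590 (2.14), and Hoxa13 in 34DN (2.93). In the 1-1067 set the 86 factors had 0, 1, 1 and 2 genes with a peak, against 0.782 to 0.889 by exon length.

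Olfactory receptor and zinc finger genes had fewer distal exonic peaks than genes of like exon length in the 1-590 set. Of 1187 olfactory receptor genes, the odorant receptors of sensory neurons, 14 had a distal exonic peak in vector, 15 with 1-590, 23 with 10RA and 26 with 25RA, against 60.4, 85.7, 86.5 and 104 by exon length. Of 480 zinc finger genes the numbers were 21, 35, 37 and 59, against 39.7, 53.1, 54.0 and 65.3. Clustered protocadherins, neuronal adhesion genes, had 2, 4, 9 and 4 of 58, against 1.74, 2.71, 2.70 and 3.16, and Pcdhga10 recurred in 1-590 (fold 2.46), 10RA (3.17) and 25RA (2.75). Collagens and laminins had 3, 6, 5 and 6 of 55 and ribosomal protein genes 1, 3, 0 and 2 of 80, both under the numbers by exon length (5.61, 7.43, 7.45 and 9.19; 2.35, 3.46, 3.55 and 4.11).

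Blood regulators, cytokine and Polycomb genes also carried distal exonic peaks, in some libraries more often than genes of like exon length; numbers by exon length are given in parentheses, in the order vector, 1-590, 10RA and 25RA. Of 40 HSPC and leukaemia regulators, 6 had a distal exonic peak in vector, 10 with 1-590, 7 with 10RA and 5 with 25RA (3.49, 4.71, 4.77 and 5.78). Myc, the growth regulator, had a coding peak in exon 2 of 3 in all 4, with pileups of 14, 30, 18 and 23 and folds of 2.83, 3.42, 3.27 and 3.55; Gfi1, a myeloid repressor, also had a distal exonic peak in all 4, and Tal1, a master regulator of blood stem cells, in vector, 1-590 and 10RA. Of 22 cytokine and JAK-STAT genes the counts were 6, 5, 2 and 4 (1.77, 2.37, 2.41 and 2.89), and Il6ra, the interleukin 6 receptor, was the one present in all 4. Of 30 Polycomb genes they were 8, 5, 5 and 4 (2.66, 3.498, 3.47 and 4.28), with Bcor, Bmi1, Kdm2b and Phc2, all of PRC1, in 3 libraries each. Of 15 cell cycle inhibitors and tumour suppressors they were 1, 2, 3 and 5 (1.19, 1.64, 1.69 and 2.03). Cdkn2a, which encodes the inhibitor p16 and is a classic target of PRC1, had a coding peak in exon 2 of 3 in 1-590 (pileup 50, fold 2.38), 10RA (39, 2.87) and 25RA (41, 2.97) and none in vector. Its neighbour Cdkn2b had a coding peak in the same 3 libraries, with pileups (and folds) of 40 (3.03), 26 (3.34) and 30 (3.74). The vector library had the lowest background of the set, and its part in these absences was not tested. Of 15 erythroid and megakaryocyte genes the counts were 2, 2, 2 and 3 (0.905, 1.26, 1.27 and 1.53). Of 14 lymphoid genes they were 1, 2, 1 and 5 (1.02, 1.39, 1.40 and 1.71), and of 10 stromal and endothelial genes 1, 2, 2 and 3 (1.06, 1.40, 1.41 and 1.75). Replication-dependent histone genes gave 1, 1, 1 and 0 of 73 (0.482, 0.581, 0.685 and 0.669), other cadherin genes 7, 8, 8 and 10 of 43 (4.30, 5.76, 5.78 and 7.16), and BAP1 complex genes 2, 2, 0 and 0 of 11 (1.15, 1.501, 1.497 and 1.83). Of 18 myeloid genes 5, 2, 3 and 5 had one (0.696, 0.954, 0.940 and 1.15), more than exon length gives in each library. Of 8 mast cell and basophil genes 3, 1, 0 and 4 had one (0.344, 0.475, 0.468 and 0.561), with none in 10RA.

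Against the vector, the 1-590 library listed more distal exonic peaks and shared fewer of them. Of its 2264, 1624 (71.7%; 69.8 to 73.5) had no overlapping peak in vector; the figure for all peaks of the list was 66.9% and for distal intronic peaks 83.5%. In the other direction, 944 of 1586 vector peaks (59.5%; 57.1 to 61.9) had none in 1-590, against 45.8% of all and 71.03% of intronic peaks. Distal exonic peaks were thus shared less than peaks at large and more than intronic ones, in both directions. Of those found in 1 of the pair only, 63.2% were in 1-590 (61.4 to 65.1), against 70.2% for all peaks; with lists of equal length it fell to 41.9%, so its direction depended on list length. The strongest peaks of 1-590 with none in vector were in Fntb (fold 7.91), Fbxo40 (7.74), Cndp2 (7.05), Itgb6 (6.11) and Tnfaip8 (6.09), and 4 of the 5, all but Itgb6, lay within 187 bases of the start of a non-canonical transcript. The strongest of vector with none in 1-590 were of another kind: Cpa3 (17.2), Lgals3 (12.7), Cma1 (11.8), Lyz2 (11.8) and Spp1 (11.1), each inside 1 canonical exon to within 10 bases and 1884 to 6560 bases from any start.

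The condensation mutants were compared with 1-590. In 10RA, 1486 of 2271 distal exonic peaks (65.4%) had no overlapping peak in 1-590, against 57.4% of all its peaks, and in 1-590 1493 (65.9%) had none in 10RA, against 63.5%. The split was 49.9% in 10RA (48.1 to 51.7), against 44.0% for all peaks, and crossed to 55.7% with equal list lengths. The strongest of 10RA alone were in Syne1 (6.01), Gas2 (5.93), Anxa2r1 (5.88), Mypn (5.88) and Nnmt (5.77), and of 1-590 alone in Hnrnpf (10.4), Cdk14 (7.77), Fbxo40 (7.74), Msra (6.97) and Zbtb44 (6.92). In 25RA, 1879 of 2823 (66.6%) had none in 1-590, against 58.6% of all, and 1351 (59.7%) of 1-590 had none in 25RA, against 57.5%. The split was 58.2% in 25RA (56.5 to 59.9), against 51.5% for all peaks, and 56.6% with equal lengths. The strongest of 25RA alone were again Cpa3 (11.01), Lyz2 (9.51) and Spp1 (7.89), with Fth1 (7.78) and Ctsb (7.72); of 1-590 alone they were Osbpl9 (7.14), Cd3d (6.14), Mtg2 (5.41), Rbfa (5.34) and Lrrc8d (5.27). The comparisons with 10RA, 25RA and vector share the 1-590 library.

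In the 1-1067 set almost no distal exonic peak was shared. Of the peaks of 1-1067, 230 of 244 (94.3%) had no overlapping peak in vector, against 89.8% of all its peaks, and 243 of 255 (95.3%) of vector had none in 1-1067, against 88.9%. For 34DN and 1-1067 the figures were 222 of 234 (94.9%), against 88.1%, and 228 (93.4%), against 90.0%; for 36EQ and 1-1067 they were 254 of 272 (93.4%), against 86.9%, and 226 (92.6%), against 87.3%. The splits were 48.6% in 1-1067 over vector (44.2 to 53.1), 49.3% in 34DN (44.7 to 53.9) and 52.9% in 36EQ (48.4 to 57.3), all with 50% inside the interval. The strongest unshared peaks were low, with folds of 3.86 to 5.62: Nkiras2 (4.66), an inhibitor of NF-κB signalling, led in 1-1067 over vector, Sp140l2 (5.62) and Setd7 (4.61), a lysine methyltransferase, in vector, Cep170b (4.95) in 34DN and Pgs1 (4.97) in 36EQ. Distal exonic peaks of this set were more often met by a peak of the 1-590 set (23.1 to 32.7% of them) than by one of their own (12.2 to 17.1%). The same held for all peaks of these lists, at 31.2 to 38.0% against 18.8 to 21.0%. The 1-590 lists are longer.

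**Figure D4:**
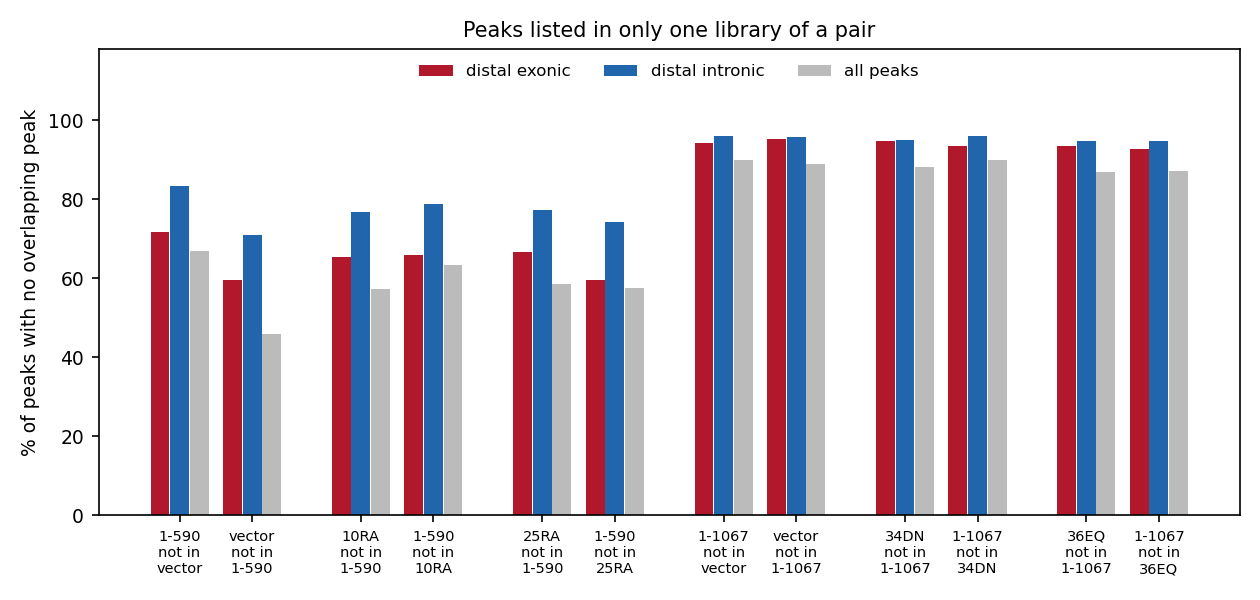
Share of peaks, in percent, with no overlapping peak in the other library of a pair, for distal exonic, distal intronic and all H2AK119ub peaks; each pair is shown in both directions. Distal exonic peaks stand between the other 2 in the 1-590 set, at 59.5 to 71.7%, and at 92.6 to 95.3% in the 1-1067 set.

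The libraries of the 1-590 set held strong peaks that kept to single exons, in the largest numbers in vector and 25RA. Of the distal exonic peaks with a fold of 5 or more in an exon of the canonical transcript, those that lay inside that exon (10 bases allowed at each edge) were 58 of 81 in vector (71.6%; 61.0 to 80.3), 10 of 21 in 1-590 (47.6%; 28.3 to 67.6), 13 of 23 in 10RA (56.5%; 36.8 to 74.4) and 28 of 40 in 25RA (70%; 54.6 to 81.9). In the 1-1067 set it was 1 in each library, the Lars2 peak. Weaker peaks often lay inside 1 exon too. Among distal exonic peaks of any fold in exons of 200 to 1000 bases, vector had 51.1% confined, 25RA 43.2%, 10RA 42.5% and 1-590 31.5%. The intervals of 1-590 and 10RA contain their own base, so no excess was shown there. Exon length was not matched: the strong confined peaks of 10RA lay in exons with a median of 3115 bases, against 1094.5 for vector. The class of strong confined peaks, its thresholds and the lists used with it were chosen after the values were seen. As a share of all distal exonic peaks it was 3.66% in vector, 0.442% with 1-590, 0.572% with 10RA and 0.992% with 25RA. The members differed in sequence between libraries: their median was 1.83 CpG per 100 bases in vector and 1.99 in 25RA, against 7.81 in 1-590 and 3.99 in 10RA. In vector 46 of the 58 lay in the last exon and 11 in internal exons; in 25RA 24 and 4 of 28 did.

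Of the 52 genes with such a peak in vector, 12 were in a list of 34 macrophage and lysosome genes, 6 in one of 17 mast cell genes and 4 in one of 20 genes of abundant messages. Of the 26 in 25RA, 8, 4 and 4 were, and of those in 1-590 and 10RA none. The 3 lists were drawn up after these peaks were seen, so the counts describe the peaks and support nothing. Counting any distal exonic peak, the macrophage and lysosome genes gave 17, 2, 3 and 17 (2.10, 2.91, 2.99 and 3.55 by exon length), the mast cell genes 8, 2, 1 and 8 (0.728, 1.02, 1.03 and 1.21) and the abundant messages 7, 0, 0 and 7 (1.09, 1.53, 1.49 and 1.84) in the order vector, 1-590, 10RA and 25RA. None of the 3 lists had a member with a distal exonic peak in the 1-1067 set. Lyz2, the lysozyme of macrophages and neutrophils, had a peak in exon 4 of 4 in vector, 10RA and 25RA and no distal exonic peak in 1-590. The part of background in this absence (0.908 fragments per base in vector, 2.06 with 1-590) was not tested. The Lyz2 summit pileup was 174 fragments in vector (fold 11.8), 22 in 10RA (4.91) and 126 in 25RA (9.51). Cpa3, the mast cell carboxypeptidase, had 48 in vector (17.2) and 40 in 25RA (11.01) in exon 11 of 11. The last exon of Psap, the precursor of lysosomal saposins, had 136 in vector (9.71) and 108 in 25RA (7.19). That of Fth1, the ferritin heavy chain, had 91 (9.43) and 71 (7.78). B2m, the light chain of class I histocompatibility molecules, had 30 (8.32) and 25 (6.13) in exon 2 of 4. Several genes with such a peak had exon-confined peaks, of any fold, in more than 1 exon: in vector Psap in 3, and Cma1, Ctss (cathepsin S), Eef1a1 (elongation factor), Gpnmb, Lgals3 (galectin 3) and Spp1 in 2 each, with no distal intronic peak in any of the 7. In 25RA Psap, Cma1, Gpnmb, Lgals3 and Spp1 had 2 each, and Psap 1 intronic peak. Short genes leave little intron for such a peak: Cma1 spans 3225 bases and Spp1 7071, against 18417 for Lgals3 and 24950 for Psap. The peaks of Lgals3 and Gpnmb in their last exons started at the first base of the exon in vector, and that of Cma1 in exon 5 of 5 stayed 17 and 18 bases inside its edges. Other peaks of these genes ran past the exon: that of Cpa3 in exon 9 of 11 by 60 bases in vector (fold 6.28) and 97 in 25RA (5.45), and in 25RA those of Gpnmb in exon 2 by 123 (3.90) and of Psap in exon 6 by 426 (2.45). In 1-590 the peak of Gpnmb in exon 8 ran 39 and 74 bases past its edges (3.06).

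**Figure D5:**
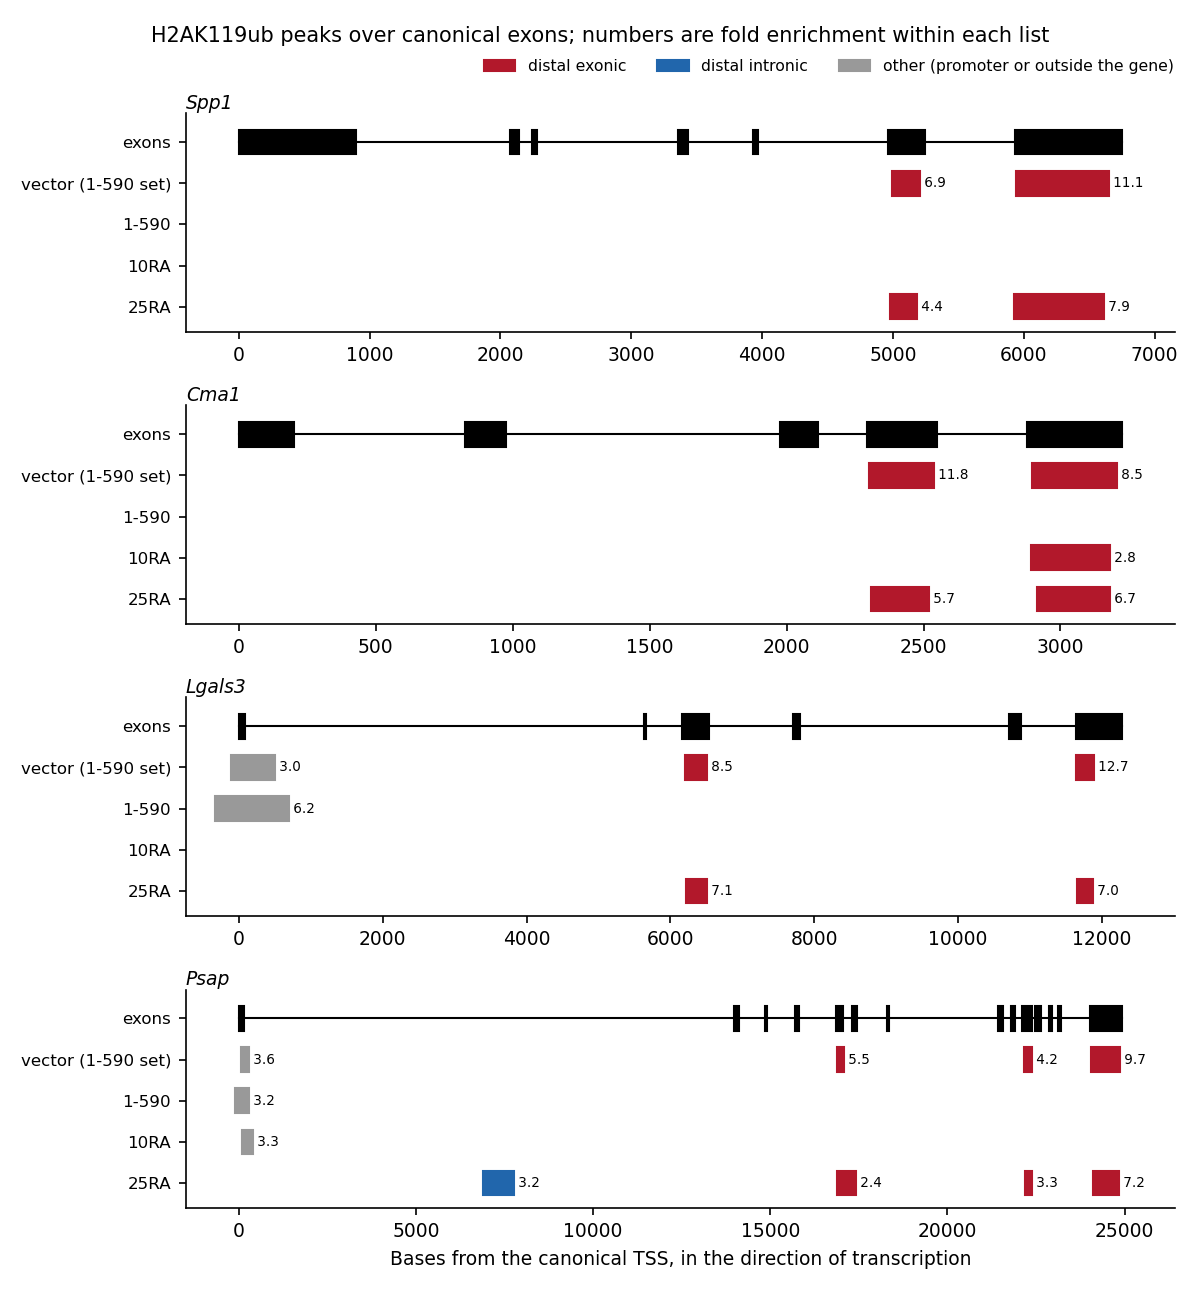
Canonical exons (black) of Spp1, Cma1, Lgals3 and Psap, drawn from the TSS in the direction of transcription, with the H2AK119ub peaks of the 4 libraries of the 1-590 set below them, coloured by class and marked with the fold within each list. The distal exonic peaks of vector and 25RA sit over exons, for example at folds of 11.8 and 8.45 in Cma1 in vector.

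Many of the same places recurred in vector and 25RA, and the fewer such peaks of 1-590 and 10RA often recurred as well. Of the 58 in vector, 40 (69.0%) were met by a peak of 25RA, 7 (12.1%) by one of 1-590 and 12 (20.7%) by one of 10RA. The shares over all distal exonic peaks of vector were 42.4%, 40.5% and 34.4%. Of the 28 in 25RA, 26 (92.9%) were met in vector, against 24.4% of all its distal exonic peaks. Of the 10 in 1-590, 8 were met in vector and 9 in 25RA, against 28.3% and 40.3% of all its distal exonic peaks. Of the 13 in 10RA, 7 were met in vector and 6 in 25RA, against 24.5% and 36.6%. These base shares were not matched for fold. Of the 52 genes in vector, 4 (7.69%) had a distal intronic peak of the same library, against 425 of 1397 (30.4%) of the other genes with a distal exonic peak. In 25RA it was 9 of 26 (34.6%) against 999 of 2398 (41.7%). In 1-590 it was 2 of 10 (20%) against 41.1%, and in 10RA 7 of 13 (53.8%) against 37.3%. These shares were not matched for gene or intron length, so no conclusion about introns is drawn from them. After thinning to the vector background the numbers were 58 in vector, 7.70 with 1-590, 9.20 with 10RA and 21.2 with 25RA. On simulated data thinning kept 70.9 to 73.6% of the peaks a shallow library would list at a true fold of 5. The simulation used the lowest background of each library and no higher fold, so it cannot give the loss for these peaks. The last 3 numbers may be too low. A fold of 5 is not the same mark in each list, since the lowest fold of a distal exonic peak was 2.03 in vector and 1.71 in 1-590; at a fold of 4 or more the numbers were 168, 58, 79 and 110. Whether spliced transcripts contributed to these peaks, and whether cell makeup differed between the libraries, was not tested.

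At their own loci in the mouse genome, Bap1 and Asxl1 had few distal exonic peaks. Bap1 had a coding peak in vector only, chr14:30978049-30978323 in exon 11 of 17, with a pileup of 11 and a fold of 4.11; it ran 19 and 71 bases past the exon, into the introns. Asxl1 had 1 in vector in exon 12 of 12 (pileup 7, fold 3.88) and 1 in 1-590 in exon 11 of 12 (pileup 9, fold 2.84), with a −log10 q of 1.80 and 1.21. Peaks of the 4 BAP1 and ASXL1 ChIP-seq libraries of the series, made with 1-590 and 10RA, met 20 distal exonic peaks of vector (1.26%), 15 of 1-590 (0.663%), 17 of 10RA (0.749%) and 24 of 25RA (0.850%), against 0.735 to 0.861% of all peaks of those lists. Of the exon-confined strong peaks they met 5 of 58 in vector (8.62%) and 5 of 28 in 25RA (17.9%), in both cases Ctsd (cathepsin D), Lars2, Lyz2, Psap and Spp1. In 1-590 they met 1 of 10 (10%) and in 10RA 1 of 13 (7.69%), the Lars2 peak in both.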

How the data were processed

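The members were taken from 8 deposited H2AK119ub peak lists, 1 library per condition, and 4 ChIP-seq lists were used for overlap only. The members, gene lists and comparisons were chosen with earlier results of these data known. MACS3 3.0.3, Bowtie2 2.5.4, fastp 0.24.0, Picard, SAMtools and the mm39 build are listed in the submitters' processing notes. The fold of each peak is the ratio of summit pileup plus 1 to local background plus 1, and with the −log10 p, −log10 q and score it stands as deposited by the authors. Both kinds of value served within a list only, apart from the pileups and backgrounds recovered from them. Per the labels the data were spike-in normalized with E. coli reads; whole pileups were recovered for 100% of peaks in 7 lists and 99.997% in 1-590, so no spike-in factor multiplied them. Subsampling of reads before peak calling would leave whole pileups too and cannot be seen in the lists, so backgrounds and pileups may not be the sequenced depth. Use of a control library is not given in the sources used here. Peak names in the 25RA, 34DN and 36EQ lists carry codes that differ from the titles; groups follow the titles. For the ChIP libraries the labels name antibodies to BAP1 or ASXL1 in one place and to the HA tag in another; they are called by their titles.

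Left out were 30 to 48 peaks per list on other sequences. Of 21757 protein-coding genes in GENCODE vM39, each has 1 canonical transcript, and the genome share of a class was counted at every 100 bases. Peaks shared a place when they overlapped by 1 base or more. GC and CpG were counted over 301 bases, and copies as the median genome occurrence of 32-base words over 200 bases. The number of list genes by exon length is the number that protein-coding genes of like distal exon length would give. Thinning drew each pileup down to the lowest background of the set (20 draws) and kept peaks with p of 0.001 or less. On simulated data at a true fold of 3, thinned lists of 1-590, 10RA and 25RA held 37.0 to 48.6% of the peaks of a shallow library. At a true fold of 5 they held 70.9 to 73.6%. Thinned numbers of deeper libraries are thus too low at such folds. Named peaks are the 5 of largest fold per list and per pair and direction, the 20 regions in most libraries, the 10 genes with most regions, list members, Bap1, Asxl1, Cdkn2a and the Hoxa genes; some that this rule takes are not reported here. The tests used Python 3.11.15, numpy 2.4.6, scipy 1.17.1 and pandas 2.3.3.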

Additional observations from a re-analysis of the deposited data

How the results depend on the processing

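No paired analysis between conditions was possible because each condition had 1 library. The share of peaks that were distal exonic, over each set, was 7.80% in the 1-590 set and 4.29% in the 1-1067 set. It became 5.81% and 3.37% at 5 kb from a canonical TSS, 3.91% and 2.55% beyond 2 kb from every transcript start, 5.22% and 2.29% with canonical exons, and 4.30% and 1.00% with coding sequence. In the 1-590 set it was 7.57% after thinning, and in the 1-1067 set 3.52% with q of 0.05 or less. Among peaks in 1 library of a pair only, the share in the first library moved as follows. Thinning lowers the deeper library of a pair by more than equal depth would, so the thinned values carry no direction. For 1-590 and vector the share was 67.6% with q of 0.05 or less, reversed to 41.9% with equal list lengths, and was 44.7% after thinning. For 10RA and 1-590 it was 47.7% with that q and reversed to 55.7% with equal lengths, with 52.1% after thinning. For 25RA and 1-590 it was 56.3% when an overlap had to cover 50% of the peak. For 1-1067 and vector it reversed to 59.2% with that q, with 57.1% after thinning. For 34DN and 1-1067 it was 41.1% with that q and 44.3% after thinning, and reversed to 50.1% at 5 kb and 54.1% with equal lengths. For 36EQ and 1-1067 it was 58.1% with that q and 45.7% after thinning. The cause of the other changes was not tested. Against intronic peaks, the share with q of 0.05 or less reversed to -0.146 percentage points with coding sequence only (exact adjusted p = 0.922). The length difference was 11.3 bases (exact adjusted p = 0.117) with q of 0.05 or less and 6.88 bases (0.128) beyond every start, and the fold difference -0.0944 (0.0750) and -0.0787 (0.0656); GC, CpG, background and sharing kept their calls in all 3 alternatives run for them. Exon-confined strong peaks at a fold of 4 or more numbered 168 in vector, 58 in 1-590, 79 in 10RA, 110 in 25RA, and 2 in vector, 4 in 1-1067 and 3 in 34DN in the 1-1067 set. With any exon of the gene they were 18 in 1-590 and 2 in the vector of the 1-1067 set. With fewer than 3 CpG per 100 bases they were 3 in 1-590, 5 in 10RA and 0 in each library of the 1-1067 set, and with sequence words found once only also 0 in each of these. Of 110 alternative values, 61 kept their direction and call or stayed within the range set for them. The depth limits the vector library of the 1-590 set most, with 0.908 fragments per base, and peaks missing there may be undetected.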
